A study of Mus musculus with 8 samples.

Results

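The genes described here are 42 genes of the hypoxia response and of glycolysis, out of 54752 genes listed in the count tables. They were taken from a list of names by matching GENCODE gene symbols. They comprise 3 subunits of the hypoxia-inducible factor (HIF), 4 genes that mark HIF for destruction, 15 HIF targets, 3 transporters of glucose and lactate, and 17 glycolytic enzymes. Every name matched a row. Aldoa matched a second row of few counts, which is given apart.

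RNA was sequenced from the brains of 8 wild type mouse fetuses at embryonic stage E15.5, 1 library a fetus. The strain is C57BL/6 in the labels and C57BL/6Slac in the study's methods. The study's text describes whole fetal brains, with forebrain, midbrain and hindbrain. The tissue is Brain in the labels but half_whole_brain in the study's library list, so whether a whole brain or a part of it was used is uncertain. The control group held females F36 and F37 and males M30 and M31, and the stress group held females F34 and F35 and males M28 and M29. Dams of the stress group underwent chronic unpredictable mild stress (CUMS), a daily change of mild stressors, until the day before collection, and dams of the control group did not. By the library list the 4 control fetuses were littermates, as were the 4 stressed fetuses of a different litter, and no batch was named. Condition and litter therefore cannot be told apart, and each p-value measures the spread among littermates.

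Cells read oxygen through HIF. With oxygen present, prolyl hydroxylases modify the alpha subunits of HIF and the VHL protein marks them for destruction; when oxygen is short, the alpha subunits persist, pair with ARNT and switch on genes for glucose uptake, glycolysis, vessel growth and mitochondrial turnover. Most of this control acts on the HIF protein, which RNA-seq does not measure. Glycolysis, which converts glucose to pyruvate and lactate, is used heavily by dividing cells, and many of its enzymes are also HIF targets.

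HIF binds DNA at a short core, ACGTG or GCGTG. In RefSeq promoter windows (build GRCm38.p6, 250 bases before to 50 after a gene's start) at least 1 core on either strand stood in 43.8% of all 32851 windows, counting each start position, so that a CACGTG counts at 2 starts. Of the 42 genes, 37 had a window, and 33 of these had a core in at least 1 window, against 46.7% of all 27025 genes with a window. A gene with several windows has more chances of a core, and the number of windows per gene was not matched in this comparison. Cores stood in a window of 12 of 15 genes lower in stress, 4 of 4 higher in stress and 16 of 17 not called. The 150 bases before the start are printed, cores in capitals, for Ldha, Adm and Pdk1, which were lower in stress, for Hk2, which was higher, and for Pgk1, which was not called. Where a gene has several windows the first is shown, and the stretches overlap no exon of GENCODE vM21. The Ldha stretch lies at chr7:46845654-46845803, plus strand. The Adm stretch lies at chr7:110627507-110627656, plus strand. The Pdk1 stretch lies at chr2:71873074-71873223, plus strand. The Hk2 stretch lies at chr6:82774455-82774604, minus strand. The Pgk1 stretch lies at chrX:106186950-106187099, plus strand. A match of letters is a description and not a site shown to be bound.
Ldha: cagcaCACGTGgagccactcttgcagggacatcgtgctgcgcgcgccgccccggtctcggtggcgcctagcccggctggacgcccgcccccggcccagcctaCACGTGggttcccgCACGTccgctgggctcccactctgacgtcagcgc
Adm: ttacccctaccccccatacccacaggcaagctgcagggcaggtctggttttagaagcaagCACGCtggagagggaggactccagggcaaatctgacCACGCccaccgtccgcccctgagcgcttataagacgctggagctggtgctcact
Pdk1: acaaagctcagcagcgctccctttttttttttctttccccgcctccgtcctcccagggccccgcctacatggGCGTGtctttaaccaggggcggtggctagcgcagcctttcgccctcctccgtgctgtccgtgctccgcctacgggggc
Hk2: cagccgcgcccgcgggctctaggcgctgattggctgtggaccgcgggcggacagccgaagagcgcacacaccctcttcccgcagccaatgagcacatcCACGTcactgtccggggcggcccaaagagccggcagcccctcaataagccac
Pgk1: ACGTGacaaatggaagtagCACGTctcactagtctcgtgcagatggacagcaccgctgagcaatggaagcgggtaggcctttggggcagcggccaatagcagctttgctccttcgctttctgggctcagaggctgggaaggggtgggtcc

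The filter on low counts kept 41 of the 42 genes and left out Car9. The expression level is given as RPKM, which divides read pairs by the kilobases of exon and by library totals scaled with edgeR's TMM method, and per-brain values are listed as control F36, F37, M30 and M31, then stress F34, F35, M28 and M29. In stress compared to control, 18 of the 41 were lower and 4 were higher at an adjusted p under 0.05 (edgeR's quasi-likelihood test, sex as a covariate, Benjamini-Hochberg adjustment over 17865 genes). Over all genes tested, 7.27% were lower and 6.49% were higher. Log2FC (stress vs. control) was below 0 in 33 of the 41, with a median of -0.12, whereas over all genes tested it was below 0 in 49.4% with a median of 0.0015. The groups did not overlap in the levels of the 22 called genes, nor in those of Epas1, Egln1 and Pfkm, which were not called. Such separation was seen in 16.4% of all genes tested.

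**Figure D1:**
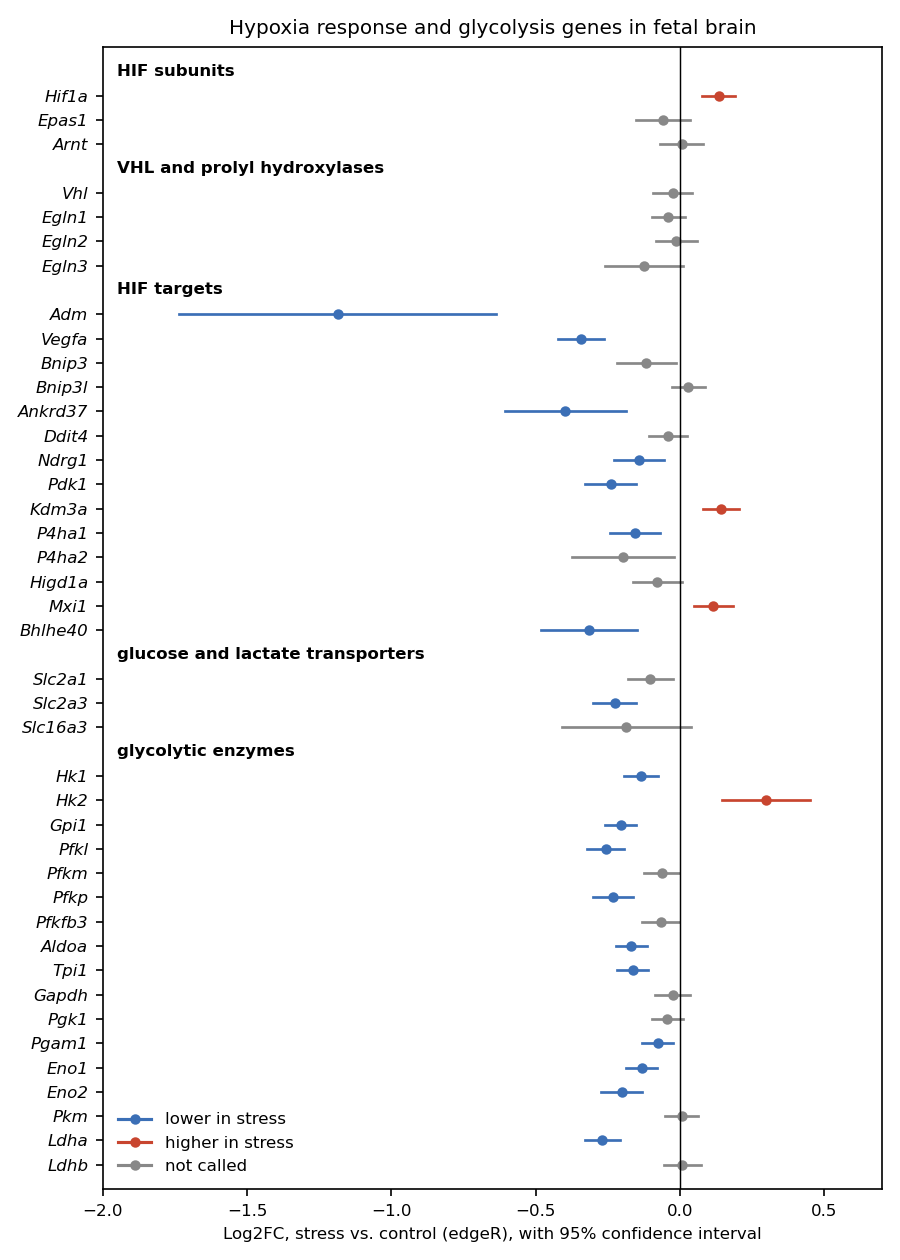
Log2FC (stress vs. control) on the horizontal axis for the 41 genes tested, by role, with points for estimates and lines for 95% confidence intervals (edgeR, 4 brains against 4). Blue points are the 18 genes lower in stress, red points the 4 higher and grey points the 19 not called; Adm has the lowest estimate, -1.19, and the widest interval.

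HIF is a dimer of an oxygen-controlled alpha subunit and ARNT. Hif1a (ENSMUSG00000021109.13, chr12:73901375-73947530 of mm10) encodes the alpha subunit found in most cells and stood at 25.5, 26.0, 27.0 and 26.7 RPKM in the control brains and 28.1, 29.5, 28.3 and 29.5 RPKM in the stressed brains. Each stressed brain was above each control brain (Log2FC = 0.13, SE 0.029, adjusted p = 0.00225). Epas1, the alpha subunit HIF-2α known from endothelium, averaged 4.43 ± 0.0643 RPKM in controls and 4.25 ± 0.142 RPKM in stressed brains (SD, n = 4 each) and was not called (Log2FC = -0.060, adjusted p = 0.436). The interval of its Log2FC was -0.15 to 0.033. Arnt, the shared partner, averaged 6.59 ± 0.0968 RPKM in controls and 6.62 ± 0.241 RPKM in stressed brains (SD, n = 4 each), with a Log2FC of 0.0063 and an interval of -0.068 to 0.081.

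None of the 4 genes of HIF destruction was called by edgeR, and none had an unadjusted p under 0.05 or was called by DESeq2, which called 9.29% of all genes tested. Vhl, which recognises the modified alpha subunits, had a Log2FC of -0.026 with an interval of -0.094 to 0.042. For the prolyl hydroxylases Egln1 and Egln2 these were -0.041 (-0.098 to 0.017) and -0.013 (-0.084 to 0.058). Egln3, itself a HIF target, had the widest interval of them, at -0.12 (-0.26 to 0.011). Egln1 and Egln2 averaged 31.3 and 30.7 RPKM over the 8 brains and Egln3 4.36 RPKM, so Egln3 was the least abundant of them per length.

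Among the 14 HIF targets tested, 7 were lower in stress, 2 were higher and 5 were not called, with a median Log2FC of -0.15. The shares over all genes tested were 7.27% lower and 6.49% higher. The lower genes were Adm, Vegfa, Ankrd37, Ndrg1, Pdk1, P4ha1 and Bhlhe40, and the higher genes were Kdm3a and Mxi1. Log2FC ranged from -1.19 to 0.14, and the lowest after Adm was -0.40.

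Vegfa (ENSMUSG00000023951.17, chr17:46016993-46032369 of mm10), the growth factor that draws vessels into the brain, had the smallest p among these targets. It stood at 16.4, 18.2, 17.7 and 17.7 RPKM in the control brains and 14.1, 14.7, 13.0 and 13.5 RPKM in the stressed brains, so that the highest stressed brain lay below the lowest control brain. The fitted level fell by 21.2% (Log2FC = -0.34, SE 0.039, adjusted p = 2.69e-06). Log2FC was -0.27 (SE 0.053) in females and -0.42 (SE 0.046) in males. The mRNA of the VEGF receptors Kdr and Flt1, endothelial markers, was also lower (Log2FC = -0.29 and -0.41, adjusted p = 8.35e-05 and 2.19e-05, edgeR). The summed level of 8 endothelial markers, Kdr and Flt1 included, was 172 to 189 CPM in the control brains and 154 to 166 CPM in the stressed brains. Of the 8, 4 were lower and 4 were not called. Among those not called, Tie1 had a Log2FC above 0 (0.14, adjusted p = 0.0713, edgeR). DESeq2 called only Kdr and Flt1 of these 8. In bulk brain tissue, fewer endothelial cells and less RNA per cell cannot be told apart.

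Adm (ENSMUSG00000030790.15, chr7:110627661-110629820 of mm10) encodes adrenomedullin, a vasodilator peptide. It was scarce, with 30, 31, 28 and 22 counts in the control brains and 8, 10, 10 and 20 in the stressed brains, or 0.675, 0.675, 0.627 and 0.478 RPKM in the control brains and 0.179, 0.244, 0.215 and 0.427 RPKM in the stressed brains. All 4 stressed brains were below all control brains, M29 the nearest to them (Log2FC = -1.19, SE 0.27, adjusted p = 0.00342). Few counts lay behind this value, and its interval, -1.73 to -0.64, was the widest of the genes tested here.

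Bhlhe40, a clock-linked repressor of transcription, stood at 2.08, 1.92, 1.88 and 1.73 RPKM in the control brains and 1.501, 1.44, 1.48 and 1.68 RPKM in the stressed brains (Log2FC = -0.31, SE 0.081, adjusted p = 0.00974). Ankrd37, an ankyrin repeat gene, stood at 4.33, 4.93, 4.08 and 4.93 RPKM in the control brains and 3.11, 3.77, 2.97 and 4.04 RPKM in the stressed brains (Log2FC = -0.40, SE 0.10, adjusted p = 0.0096). Both had groups that did not overlap, but control M30 and stress M29 of Ankrd37 were narrowly apart. Of the exon bases of Ankrd37, 26.4% also belong to Lrp2bp, and 17.04% of its 50-base words are found in other transcripts. Without strand the reads of both genes cannot be told apart there, and such reads may have been left out of the counts. Without stress M28 the adjusted p of Ankrd37 was 0.0527 (edgeR).

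Pdk1 encodes a kinase that turns off pyruvate dehydrogenase. Its levels were 4.66, 5.09, 5.26 and 5.18 RPKM in the control brains and 4.27, 4.27, 4.44 and 4.13 RPKM in the stressed brains, with no overlap (Log2FC = -0.24, SE 0.043, adjusted p = 4.00e-04). P4ha1, a collagen prolyl hydroxylase, was at 7.62, 7.45, 8.11 and 8.10 RPKM in the control brains and 7.04, 6.99, 7.12 and 6.93 RPKM in the stressed brains (Log2FC = -0.16, SE 0.042, adjusted p = 0.013). The 4 stressed brains lay close together, with an SD of 0.0800 RPKM against 0.338 RPKM in the control group. Without stress M29 the adjusted p of P4ha1 was 0.0641 (edgeR). Its paralog P4ha2, at 1.08 RPKM over the 8 brains, was not called (Log2FC = -0.20, adjusted p = 0.137, interval -0.38 to -0.020).

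Ndrg1, a stress-responsive gene known from differentiating cells, was the weakest of the lower targets. It stood at 6.16, 6.54, 6.31 and 6.43 RPKM in the control brains and 6.07, 5.71, 5.90 and 5.36 RPKM in the stressed brains (Log2FC = -0.14, SE 0.042, adjusted p = 0.0223). Its call was lost in 5 of the 8 fits that left out 1 brain, with an adjusted p of 0.0835 without control F37, 0.0516 without M30, 0.0657 without M31, 0.0537 without stress F35 and 0.127 without M29 (edgeR). DESeq2 gave an adjusted p of 0.0548.

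Kdm3a, a demethylase of histone H3, moved the other way. It was at 11.9, 12.4, 12.1 and 12.2 RPKM in the control brains and 13.3, 13.2, 13.1 and 14.1 RPKM in the stressed brains, stress M29 being the highest (Log2FC = 0.14, SE 0.031, adjusted p = 0.00249). Mxi1, an antagonist of MYC, was at 12.9, 13.4, 13.2 and 13.1 RPKM in the control brains and 13.8, 13.7, 14.3 and 15.2 RPKM in the stressed brains (Log2FC = 0.12, SE 0.033, adjusted p = 0.0195). Its call was lost without control M30, control M31 or stress M29 (adjusted p = 0.074, 0.0672 and 0.123, edgeR).

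The targets that were not called include genes of mitochondrial turnover. Bnip3 had a Log2FC of -0.12 (adjusted p = 0.122, edgeR) and Bnip3l of 0.029 (adjusted p = 0.539). Of the transcript 50-base words of Bnip3, 47.2% are found in transcripts of other genes, and 22.25% of its exon bases also belong to Gm45507, so its level is uncertain. For Higd1a these shares were 24.4% and 22.5% (Gm47112), and for Bnip3l 20.8% of the words were shared. Ddit4, an inhibitor of mTOR signalling, had -0.040 (-0.11 to 0.026), and Higd1a, a mitochondrial inner membrane gene, had -0.079 (-0.16 to 0.0054). Car9, a carbonic anhydrase known as a strong hypoxia marker, was at 6, 4, 2 and 1 counts in the control brains and 2, 3, 2 and 1 in the stressed brains, or at most 0.0948 RPKM in any brain.

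**Figure D2:**
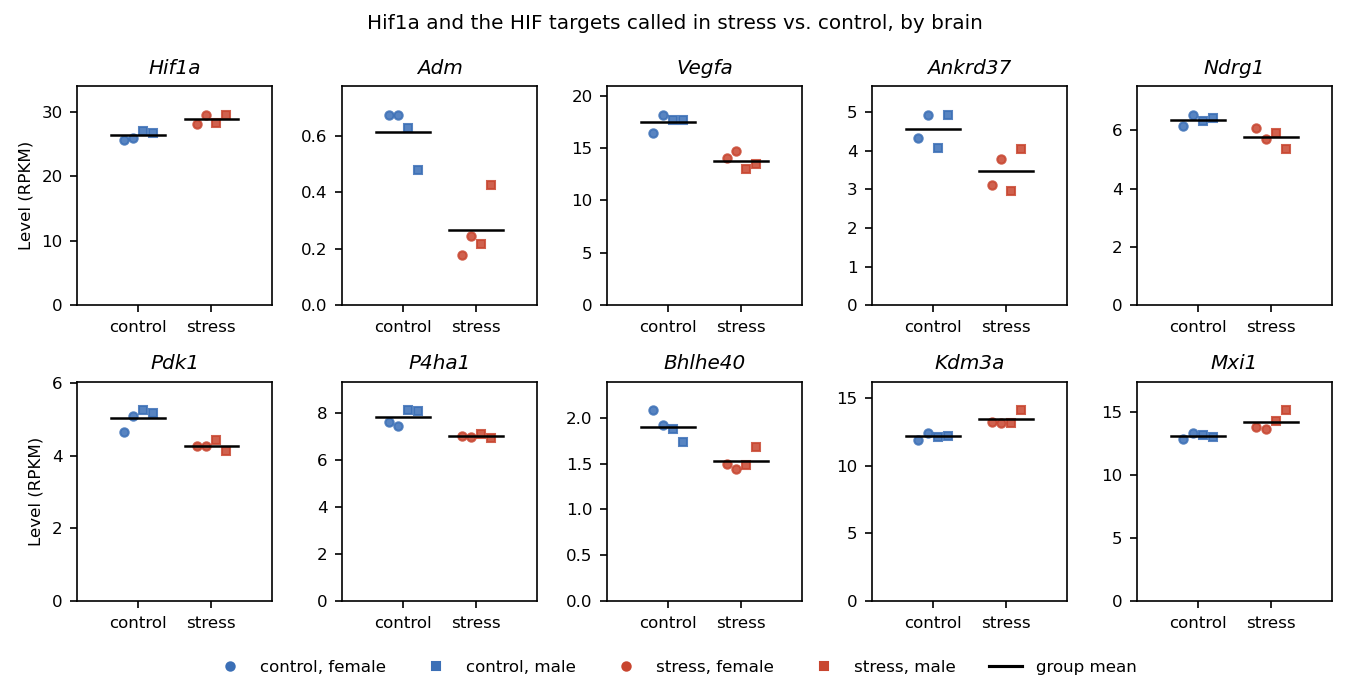
RPKM (vertical axis, from 0) of Hif1a and of the 9 called HIF targets in each brain, control in blue and stress in red, circles for females, squares for males and black bars for group means. The 7 lower targets have every red point below every blue point, Adm between 0.179 and 0.427 RPKM against 0.478 to 0.675 RPKM; Hif1a, Kdm3a and Mxi1 show the reverse.

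Glucose enters neurons through Slc2a3 and crosses brain endothelium through Slc2a1. Slc2a3 stood at 8.61, 8.75, 9.27 and 9.44 RPKM in the control brains and 7.57, 7.98, 7.53 and 7.76 RPKM in the stressed brains. All stressed brains were below all control brains (Log2FC = -0.23, SE 0.036, adjusted p = 1.34e-04). Slc2a1 was not called (Log2FC = -0.10, adjusted p = 0.0689), although it was without control F36 or without control M30 (adjusted p = 0.0342 and 0.0475, edgeR). The lactate exporter Slc16a3 was at 0.678, 0.802, 0.907 and 0.747 RPKM in the control brains and 0.701, 0.661, 0.695 and 0.695 RPKM in the stressed brains, under 1 RPKM in every brain, and was not called (Log2FC = -0.19, adjusted p = 0.284).

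Among the 17 glycolytic enzymes, 10 were lower in stress, 1 was higher and 6 were not called, with a median Log2FC of -0.13. Set beside this, 7.27% of all genes tested were lower and 6.49% were higher. The share of enzymes that were higher, 5.88%, was near that of all genes. Lower enzymes were found from hexokinase to lactate dehydrogenase, but not at the steps of Gapdh, Pgk1 and Pkm, and the gene that rose was Hk2. Log2FC ranged from -0.27 to 0.30. HIF targets were lower in 7 of 14 and glycolytic enzymes in 10 of 17, and the difference between the groups of genes was not tested.

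At the first step, hexokinase traps glucose in the cell. Hk1, the main form in brain, was at 23.2, 23.8, 22.7 and 23.4 RPKM in the control brains and 21.5, 20.3, 21.9 and 21.0 RPKM in the stressed brains (Log2FC = -0.14, SE 0.029, adjusted p = 0.00237). Hk2 (ENSMUSG00000000628.10, chr6:82725025-82774454 of mm10), the inducible form known from dividing cells, was at 1.35, 1.35, 1.48 and 1.43 RPKM in the control brains and 1.69, 1.73, 1.898 and 1.58 RPKM in the stressed brains, with every stressed brain higher (Log2FC = 0.30, SE 0.074, adjusted p = 0.00743). The summed level of 8 cycling cell markers was 497 to 538 CPM in the control brains and 568 to 657 CPM in the stressed brains, with all 8 higher, and their part in the rise of Hk2 was not tested. Log2FC of Hk2 was 0.34 (SE 0.11) in females and 0.26 (SE 0.11) in males, neither called alone.

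Gpi1, which turns glucose-6-phosphate into fructose-6-phosphate, was at 38.9, 39.2, 39.9 and 39.4 RPKM in the control brains and 34.9, 33.9, 33.9 and 33.9 RPKM in the stressed brains. The fitted level fell by 13.2% with tight groups (Log2FC = -0.20, SE 0.026, adjusted p = 1.27e-05). Phosphofructokinase, the main control point, has 3 forms. Pfkl was at 18.5, 18.8, 19.2 and 19.2 RPKM in the control brains and 16.4, 15.6, 16.1 and 15.1 RPKM in the stressed brains (Log2FC = -0.26, SE 0.031, adjusted p = 6.50e-06). Pfkp was at 33.3, 34.2, 32.0 and 35.9 RPKM in the control brains and 29.3, 30.6, 28.5 and 26.9 RPKM in the stressed brains (Log2FC = -0.23, SE 0.034, adjusted p = 5.47e-05). Both were lower without overlap, whereas Pfkm, the most abundant per length of the 3, was not called (Log2FC = -0.063, adjusted p = 0.166, interval -0.12 to -0.0026). Pfkfb3, which makes an activator of phosphofructokinase, was not called either (Log2FC = -0.067, adjusted p = 0.168).

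Aldolase and triose phosphate isomerase split and interconvert the sugar phosphates. Aldoa was at 83.7, 81.5, 82.1 and 82.6 RPKM in the control brains and 73.6, 72.3, 75.3 and 72.3 RPKM in the stressed brains (Log2FC = -0.17, SE 0.027, adjusted p = 1.27e-04). Tpi1 was at 67.0, 68.4, 67.8 and 66.9 RPKM in the control brains and 60.9, 60.7, 59.4 and 60.1 RPKM in the stressed brains (Log2FC = -0.16, SE 0.026, adjusted p = 1.48e-04). Neither gene's groups overlapped. The second Aldoa row, at 47 to 60 counts a brain, had a Log2FC of -0.0086 and was not called.

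The next enzymes, Gapdh and Pgk1, were not called. Gapdh, the most abundant gene of the list per length and the reference gene of the study's own quantitative PCR, averaged 174 ± 6.70 RPKM in controls and 171 ± 5.45 RPKM in stressed brains (SD, n = 4 each). Its Log2FC was -0.026, with an interval of -0.087 to 0.036, so a fall as large as that of Aldoa lies outside it. Pgk1 had a similar interval, -0.099 to 0.0094 (Log2FC = -0.045, adjusted p = 0.29). Of the 50-base words of Gapdh and Pgk1, 25.1% and 53.9% are found in other genes' transcripts, and reads shared with such copies may have been left out of the counts.

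Pgam1, phosphoglycerate mutase, was at 137, 139, 141 and 139 RPKM in the control brains and 129, 132, 131 and 135 RPKM in the stressed brains. Its fall was the smallest of those called (Log2FC = -0.077, SE 0.026, adjusted p = 0.048), and it was called in only 1 of the 8 fits that left out a brain, that without stress F35. In the other 7 fits its adjusted p was 0.0598 to 0.142, and without the sex covariate it was 0.0725 (edgeR). Of its 50-base words, 36.2% are found in other genes' transcripts.

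Enolase makes phosphoenolpyruvate. Eno1, the general form, was at 66.6, 68.2, 67.8 and 65.3 RPKM in the control brains and 60.8, 60.4, 61.0 and 62.3 RPKM in the stressed brains (Log2FC = -0.13, SE 0.026, adjusted p = 0.00108). Eno2, the form known from neurons, was at 17.9, 17.7, 17.2 and 17.2 RPKM in the control brains and 15.1, 16.7, 14.9 and 14.3 RPKM in the stressed brains (Log2FC = -0.20, SE 0.034, adjusted p = 2.63e-04). Both were lower in every stressed brain than in any control brain. Pkm, pyruvate kinase, had a Log2FC of 0.0064 with an interval of -0.051 to 0.064. Of the 50-base words of Eno1, Pkm, Ldhb and Gpi1, 26.0%, 25.8%, 21.0% and 15.8% are found in other genes' transcripts. Exon bases shared with another gene were 15.3% in Pkm, 11.5% in Gpi1 and 10.8% in Pfkm.

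Lactate dehydrogenase interconverts pyruvate and lactate. Ldha (ENSMUSG00000063229.15, chr7:46841475-46855627 of mm10) had the smallest p of the enzymes and was at 63.6, 67.8, 70.6 and 70.8 RPKM in the control brains and 57.3, 54.6, 58.3 and 56.2 RPKM in the stressed brains. The fitted level fell by 17.02% (Log2FC = -0.27, SE 0.029, adjusted p = 2.06e-06). The printed stretch before its start holds 5 core starts, and that of Pgk1, which was not called, holds 2. The same stretch of Bnip3, also not called, holds 5, and those of Gpi1, Tpi1 and Eno2, which were lower, hold 0. A link between cores and calls was not tested. The other form, Ldhb, was not called. It averaged 103 ± 4.56 RPKM in controls and 103 ± 2.34 RPKM in stressed brains (SD, n = 4 each), with a Log2FC of 0.0070 and an interval of -0.057 to 0.071.

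**Figure D3:**
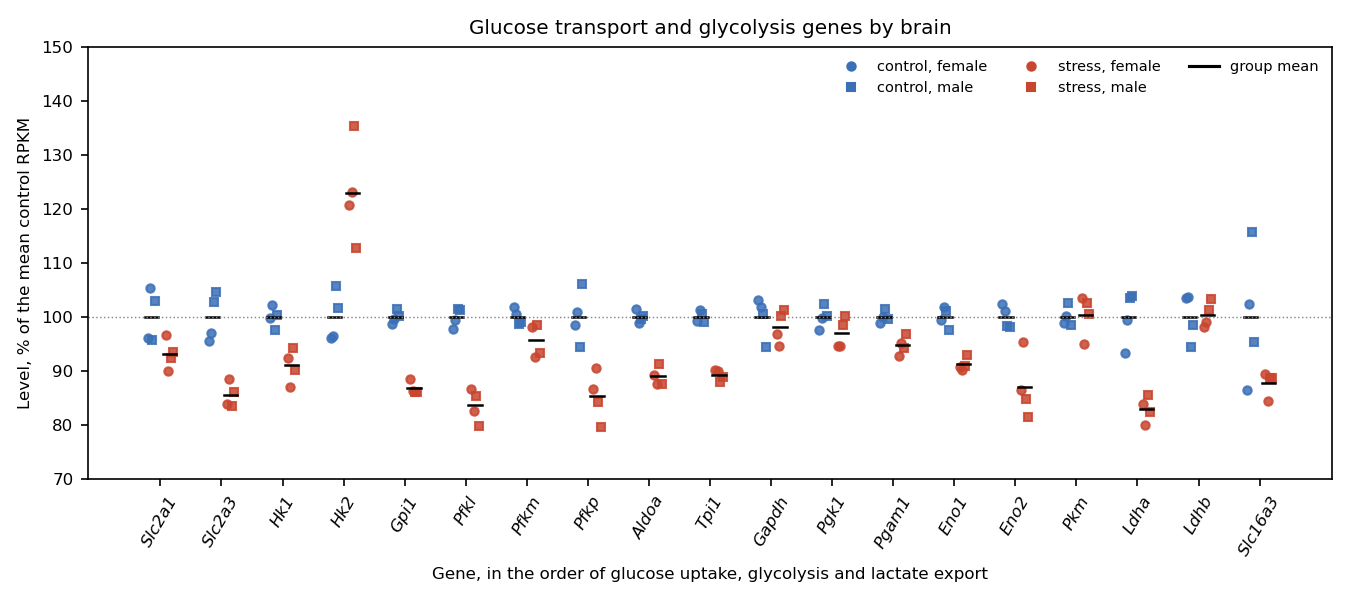
Level of each gene in each brain as a percentage of its mean control RPKM (vertical axis, from 70 to 150), in the order of glucose uptake, glycolysis and lactate export, control in blue and stress in red, circles for females, squares for males, with black bars for group means. Red points lie below the blue for Slc2a3, Hk1, Gpi1, Pfkl, Pfkm, Pfkp, Aldoa, Tpi1, Pgam1, Eno1, Eno2 and Ldha, lie above for Hk2, between 113% and 135%, and mix with the blue for Slc2a1, Gapdh, Pgk1, Pkm, Ldhb and Slc16a3.

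The make-up of the isozyme families was also described, without a test. Of the summed RPKM of Ldha and Ldhb, Ldha took 37.5, 38.9, 42.2 and 41.2% in the control brains and 36.2, 34.9, 35.96 and 34.7% in the stressed brains. The mean was 39.9% ± 2.13 in controls and 35.4% ± 0.777 in stressed brains (SD, n = 4 each), and no share overlapped between the groups. Of Hk1 and Hk2 together, Hk2 took 5.49, 5.38, 6.13 and 5.75% in the control brains and 7.29, 7.85, 7.96 and 6.997% in the stressed brains, again without overlap. Within phosphofructokinase, Pfkl took 20.1% ± 0.524 in controls and 18.7% ± 0.224 in stressed brains, and Pfkm took 44.1% ± 0.931 in controls and 47.1% ± 1.198 in stressed brains. Neither of these shares overlapped between the groups. The share of Pfkm was higher although its own level was not (Log2FC = -0.063, not called), and Pfkl and Pfkp were lower. The share of Eno2 in enolase overlapped between the groups, 20.3% to 21.2% against 18.7% to 21.7%.

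**Figure D4:**
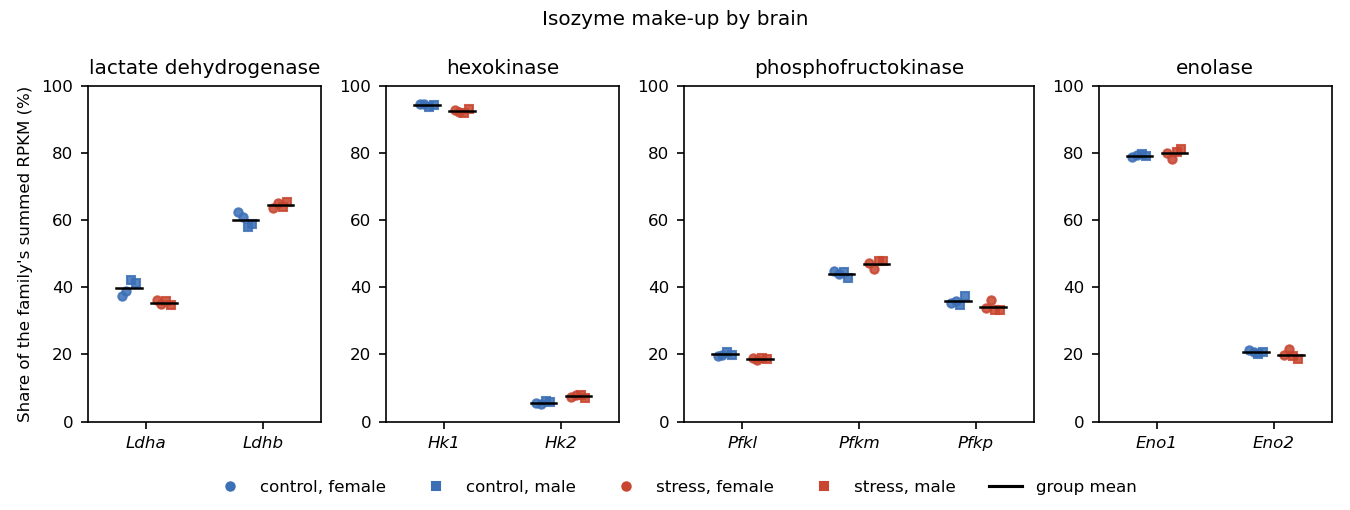
Share of each isozyme in its family's summed RPKM (vertical axis, 0 to 100%) in each brain, control in blue and stress in red, circles for females, squares for males and black bars for group means. Ldha is lower and Hk2 higher in every stressed brain, at 34.7% to 36.2% against 37.5% to 42.2% and 6.997% to 7.96% against 5.38% to 6.13%.

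By level per length the list spanned a wide range. Gapdh (173 RPKM over the 8 brains), Pkm (151 RPKM), Pgam1 (135 RPKM), Ldhb (103 RPKM) and Pgk1 (98.3 RPKM) led. Adm, Slc16a3 and Car9 were under 1 RPKM in every brain. Between brains of a group the coefficient of variation of the 41 genes tested was 1.05% to 15.2% among controls, with a median of 2.58%, and 1.06% to 41.4% among stressed brains, with a median of 3.30%; the largest of each was that of Adm.

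The sexes were also compared. In each sex alone, 2 brains against 2, all 22 called genes kept their direction. Their groups did not overlap, so this could hardly have come out otherwise. At an adjusted p under 0.05, 11 were lower and 1 higher in females, and 12 lower and 2 higher in males (edgeR). Over all genes, these fits called 2.27% lower and 1.64% higher in females and 4.81% and 3.68% in males. The median Log2FC of the HIF targets was -0.12 in females and -0.19 in males, and that of the glycolytic enzymes was -0.15 and -0.10. No gene of the list was called for a sex by stress interaction by edgeR or DESeq2. Of the 41 tested, 3 had an unadjusted p under 0.05, Gapdh, Ldhb and Vegfa, with a lowest adjusted p of 0.565 (edgeR). Of all 17865 genes tested, 1128 had an unadjusted p of the interaction under 0.05 (edgeR). The Log2FC of Gapdh was -0.099 (SE 0.037) in females and 0.047 (SE 0.035) in males. That of Ldhb was -0.071 (SE 0.042) in females and 0.083 (SE 0.038) in males. Over all genes tested, 0.0056% were called, 1 gene, Stambp, singled out after its value was seen.

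Other genes of the pathways were read from lists. Of 26 other HIF targets tested, 2 were lower and 2 higher, shares close to the 7.27% and 6.49% over all genes tested. Cav1, a caveolar coat protein of endothelium, averaged 5.10 ± 0.623 RPKM in controls and 3.61 ± 0.265 RPKM in stressed brains (SD, n = 4 each) and was lower (Log2FC = -0.50, SE 0.073, adjusted p = 5.07e-05). Wsb1, a ubiquitin ligase component, was higher (Log2FC = 0.15, SE 0.026, adjusted p = 2.52e-04), as was Lox, a collagen crosslinking enzyme at 13 to 47 counts a brain (Log2FC = 0.90, SE 0.24, adjusted p = 0.0116). The other lower gene was Ppp1r3c. Like Kdr, Flt1 and Tie1 above, Ppp1r3c is named outside the rule, after its values were seen. Ppp1r3c lost its call without stress F34 or M29 (adjusted p = 0.0548 and 0.0505, edgeR). Lox and Ppp1r3c were not called by DESeq2 (adjusted p = 0.0556 and 0.0683). Lox was not called without control F37 or without stress M29 (adjusted p = 0.0506 and 0.0861, edgeR).

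Over all genes tested, 7.27% were lower and 6.49% higher, the shares to set beside each list below. Of 13 other regulators of HIF, 2 were higher and none lower. They were Siah1a, a ligase of prolyl hydroxylases (Log2FC = 0.14, SE 0.035, adjusted p = 0.00865), and Arnt2, the neural partner of HIF alpha (Log2FC = 0.10, SE 0.027, adjusted p = 0.0108). Of 22 other glycolysis genes tested, Slc16a7, a monocarboxylate importer, was lower (Log2FC = -0.31, SE 0.050, adjusted p = 1.62e-04), and Pfkfb2 and Adpgk were higher (Log2FC = 0.15, SE 0.041, adjusted p = 0.0148; Log2FC = 0.15, SE 0.044, adjusted p = 0.0232). None of 12 genes of pyruvate dehydrogenase and pyruvate import was called by edgeR or DESeq2, with 2 at an unadjusted p under 0.05. Arnt2 lost its call without control M30 or stress F34 (adjusted p = 0.0605 and 0.056, edgeR), Pfkfb2 without control F36 or M30 (0.0711 and 0.0666), and Adpgk in 5 of the 8 fits (edgeR, lowest adjusted p after loss 0.0546). Adpgk was also not called by DESeq2 or by edgeR without the sex covariate (adjusted p = 0.0805 and 0.0519).

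Cell type markers moved as well. Beside the cycling and endothelial markers, 5 of 8 neuron markers were lower. Higher were 4 of 5 intermediate progenitor markers and 4 of 8 radial glia markers. The other 4 radial glia markers were not called and had a Log2FC below 0 (edgeR). Summed levels (control against stress) were 265 to 282 against 292 to 325 CPM for intermediate progenitors. They overlapped for neurons, 7017 to 7268 against 6848 to 7182 CPM, and for radial glia, 1529 to 1623 against 1559 to 1686 CPM. None of the markers of pericytes, microglia or skeletal muscle was called by edgeR or DESeq2, with 1, 0 and 0 at an unadjusted p under 0.05. Choroid plexus markers summed to 2.71 to 11.2 CPM in the control brains and 3.18 to 33.4 CPM in the stressed brains, highest in stress F34, and fibroblast markers to 42.4 to 53.4 and 41.2 to 83.4 CPM, highest in stress M28. Of the tested markers, 1 of 5 for choroid plexus was higher, 3 of 5 for fibroblasts were higher and 1 lower, 2 of 9 for erythroid cells were higher and 1 lower, and 1 of 5 for the oligodendrocyte lineage was lower (edgeR). DESeq2 called 0 choroid plexus, 1 fibroblast (Pdgfra, lower), 3 erythroid, 1 oligodendrocyte, 4 neuron, 3 intermediate progenitor, 3 radial glia and 8 cycling cell markers. With it the higher choroid plexus marker, Ttr, had an adjusted p of 0.412, and the higher fibroblast markers Col1a1, Col1a2 and Col3a1 had 0.274, 0.32 and 0.158. These 5 markers were named after their values were seen. No marker was at 0 in every brain. Without stress F34 and stress M28, 4 of 14 HIF targets and 9 of 17 glycolytic enzymes were lower, against 5.13% of all genes, and Adm (Log2FC -0.84, adjusted p = 0.0957), Ankrd37 (-0.23, 0.228), Bhlhe40 (-0.28, 0.0858), Hk2 (0.23, 0.104) and Pgam1 (-0.059, 0.26) kept their direction without a call (edgeR). The part of any marker list in these results was not tested.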

How the data were processed

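Brain tissue of E15.5 fetuses, 4 control and 4 stress, was measured by RNA-seq of mRNA captured with oligo(dT). Per the labels and the study's methods, reads were aligned to mm10 with TopHat2 2.1.1 and read pairs on exons of GENCODE genes were counted with featureCounts 1.6.3, with no strand, multi-mapping or overlap option stated. The deposited values are raw counts per gene, without normalization. Groups were taken from the condition label.

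Genes were filtered with filterByExpr (minimum count 10, by group), scaled with TMM and then tested in edgeR 4.0.16 (limma 3.58.1, R 4.3.3) by glmQLFit and glmQLFTest, with sex and condition in the model and Benjamini-Hochberg adjustment, calling at an adjusted p under 0.05. The SE is the Log2FC divided by the square root of F. RPKM uses the exon length of the count tables. Library totals were 27484739 to 28475812 counts in the control group and 25320109 to 29105710 in the stress group (exact permutation test, two-sided, p = 0.886; the smallest possible p is 0.0286). The study's model also held batch, which could not be fitted. Shared 50-base words were counted in GENCODE vM21 transcripts. The fits were tested on simulated data. DESeq2 1.42.0, other size factors, other filters, no sex covariate, each sex alone and each brain left out were the alternatives.

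The genes and lists were chosen with earlier results of these data known, and 1 gene of the pathway lists was taken out and is not reported here. Values are given for every called gene and for genes under 1 RPKM in every brain. From each other pathway list, the 3 called genes with the smallest p are named with their values.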

Additional observations from a re-analysis of the deposited data

Results flagged for a closer look

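In groups of 4 brains, 3 single values stood far from the other 3 of their group, by a gap over range above Dixon's critical value. Over the 84 groups of 4 tested, chance flags about 1 in 20. Kdm3a was at 14.1 RPKM in stress M29 and at 13.1 to 13.3 RPKM in the other stressed brains. Gpi1 was at 34.9 RPKM in stress F34 and at 33.9 RPKM in each of the other stressed brains. Slc16a3 was at 0.661 RPKM in stress F35 and at 0.695 to 0.701 RPKM in the other stressed brains.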

How the results depend on the processing

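Of the 22 called genes, none changed direction under any alternative. In all 22 the groups did not overlap, so fits on fewer of the same brains could hardly turn a sign. Under DESeq2, median-of-ratios (RLE) size factors, upper-quartile scaling, no low-count filter and no sex covariate, the counts of called genes on the list, of HIF targets and of glycolytic enzymes stayed within 1.5 times, and 17 of the 22 kept their call whichever brain was left out. With 1 brain left out, the genes of the list numbered 15 to 18 lower and 3 to 4 higher, the HIF targets 5 to 7 lower and 1 to 2 higher, the glycolytic enzymes 9 to 10 lower and 1 higher in each fit, and all genes 854 to 1308 lower and 736 to 1057 higher, with 0 to 6 called for the interaction. Leaving out stress M29 gave the lowest counts over all genes, 854 lower and 736 higher. Females alone gave 11 lower and 1 higher on the list, 3 and 0 of the HIF targets, 0 enzymes higher, and 407 and 295 of all genes. Males alone gave 2 higher on the list, 3 lower HIF targets, 0 enzymes higher and 664 higher of all genes. These fits hold 2 brains a group. DESeq2 called 748 genes higher and 2 for the interaction, and no filter on low counts called 37 for it. Without stress F34 and M28, a setting chosen after seeing the data, 4 HIF targets were lower, 0 enzymes higher and 741 of all genes higher.

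Among genes that were not called, the sign of Log2FC turned in these fits. In males alone it was -0.035 for Arnt, 0.018 for Egln2 and 0.047 for Gapdh, in females alone -0.0027 for Pkm, -0.071 for Ldhb and 0.051 for the second Aldoa row, and without stress F34 and M28 -0.0058 for Arnt, -0.033 for Pkm and 0.038 for that Aldoa row. With 1 brain left out it ranged over -0.018 to 0.025 for Arnt, -0.037 to 0.020 for Egln2, -0.079 to 0.041 for the second Aldoa row, -0.017 to 0.031 for Pkm and -0.023 to 0.025 for Ldhb; the cause was not tested. No paired analysis was possible. By the library list each group came from its own litter, and no label pairs a control fetus with a stressed fetus. For Adm, at 8 to 31 counts a brain, depth limits the precision.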
